A study of Mus musculus with 4 samples.

Results

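The cytosolic ribosomal protein genes were examined in RNA sequencing data of the mouse frontonasal prominence (FNP), the embryonic tissue from which the nose and snout form. They were chosen by name alone. A row was a member if its symbol was Rpl or Rps followed by a number and, where present, a single letter, a further digit or the paralogue ending l or l1, or if it was Rplp0, Rplp1, Rplp2 or Rpsa. Rps6k kinases and rows named as pseudogenes were left out. The rule found 80 genes of 33708 rows, of which 73 were main chains of the ribosome (43 of the large and 30 of the small subunit) and 7 were paralogues (Rpl3l, Rpl7l1, Rpl10l, Rpl22l1, Rpl36al, Rpl39l and Rps27l). They lay on 18 of 19 autosomes, with 14 of them on chromosome 7. The X-linked genes Rps4x, Rpl10, Rpl36a and Rpl39 were not analysed here.

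The FNP was taken from 4 embryos of strain FVB/NJ at E10.5 and the 29-somite stage, 2 Smchd1+/+ (WT) and 2 Smchd1MommeD43/MommeD43 (MD43). MommeD43 is a missense allele of Smchd1, induced by the mutagen ENU, that raised silencing of a transgene array in the screen that found it. SMCHD1 is a chromatin protein of gene silencing. By the labels, WT replicate 1 was female and WT replicate 2 and both MD43 embryos were male, whereas a supplementary record of the study lists WT replicate 2 as female. If that record is right, sex and genotype cannot be told apart. Replicate 2 of each genotype shared a mother. The comparison asked which transcripts differ in this tissue between the genotypes. Whole dissected tissue was sequenced, so fewer cells of a type and less RNA per cell cannot be told apart.

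The ribosome is the machine that translates mRNA into protein, and each of its subunits is built from ribosomal RNA and many small, mostly basic proteins encoded by genes scattered over the genome. Most of these mRNAs begin at a cytosine followed by a run of pyrimidines, the TOP motif, through which their translation follows mTOR activity. Loss of 1 copy of several of these genes causes Diamond-Blackfan anaemia in people, in which the face can also be affected, and mutations of Rpl38 (Tail-short) and Rpl24 (Belly spot and tail) disturb patterning of the mouse body.

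The values were log2 RPKM (reads per kilobase of exon, scaled to library size), with 1 column per genotype in which the authors had averaged its 2 libraries. No value below therefore has a spread between embryos, and no difference was tested. From these values a depth of 22328791 reads was recovered for MD43 and of 16055882 for WT. Reads given below are the geometric mean of the 2 libraries of a genotype, and the error of a difference is its smallest counting SE, which covers read counting alone. A gene was used if it had at least 10 reads in a genotype, which 77 of the 80 members and 15382 rows in all did. Smchd1 itself was at 3.31 log2 RPKM in WT and 3.30 in MD43. All 9 facial mesenchyme markers looked at, among them Alx1, Msx1 and Twist1, had reads.

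The annotated starts of the members were looked at first, since the TOP motif lies there. RefSeq (GRCm38.p6) gave a start for 60 of the 80 members. The letters CTTTC on the gene's strand, within 50 bases on each side of the start, were found in 31 of these 60 members (51.7%), against 14.6% of all 27025 genes with a start. The longer CTCTTTC, which contains CTTTC, was found in 18.3% of members and 1.62% of all genes. CCGGAAG, a form of the binding sequence of ETS factors, was found on either strand of the 300 bases around the start in 41.7% of members and 9.93% of all genes. TATAAA was found in 8.33% of members and 15.7% of all genes, searched in the same way. These motifs were chosen after the starts had been seen.

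The next 10 lines show the 40 bases around the RefSeq start, 20 on each side, of the 5 members lowest and the 5 highest in MD43 relative to WT among the used members with a start. Capitals mark the longest run of at least 6 pyrimidines that begins with C.
Rpl5 (chr5:107900508-107900547, plus strand): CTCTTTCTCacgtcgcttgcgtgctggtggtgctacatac
Rps15a (chr7:118116128-118116167, minus strand): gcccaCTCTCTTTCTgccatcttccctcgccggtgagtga
Rps18 (chr17:33955646-33955685, minus strand): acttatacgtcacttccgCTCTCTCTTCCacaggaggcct
Rps25 (chr9:44407694-44407733, plus strand): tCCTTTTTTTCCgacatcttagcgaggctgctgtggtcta
Rps3a1 (chr3:86142649-86142688, minus strand): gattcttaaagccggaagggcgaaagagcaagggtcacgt
Rps21 (chr2:180257359-180257398, plus strand): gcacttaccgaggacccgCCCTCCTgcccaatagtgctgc
Rpl7l1 (chr17:46782637-46782676, minus strand): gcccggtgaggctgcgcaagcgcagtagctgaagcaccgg
Rps2 (chr17:24720043-24720082, plus strand): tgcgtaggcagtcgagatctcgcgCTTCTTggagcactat
Rpl36al (chr12:69184048-69184087, minus strand): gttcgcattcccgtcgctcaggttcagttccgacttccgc
Rpl41 (chr10:128549149-128549188, minus strand): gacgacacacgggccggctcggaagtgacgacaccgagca

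Such a run was present in 36 of the 57 used members with a window. The members with and without it had nearly the same median difference between genotypes, -0.05 and -0.04 (MD43 minus WT, log2 RPKM). The members with CTTTC (30 used) and without it (27 used) had medians of -0.05 and -0.05. The windows of the lowest and highest members above therefore do not stand for the whole set.

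As a group the main chains were among the most abundant mRNAs of the FNP. Their median level was 8.38 log2 RPKM in WT and 8.34 in MD43, and the median of all used genes, as the mean of both genotypes, was 2.34. Of the 100 rows with the highest mean level, 44 were members. The members held 5.87% of the reads in WT and 5.57% in MD43. Their summed level was 32154 RPKM in WT and 31619 in MD43, a difference of -0.02 on the log2 scale. Without Rplp1 and Rpl41 it was -0.06.

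**Figure D1:**
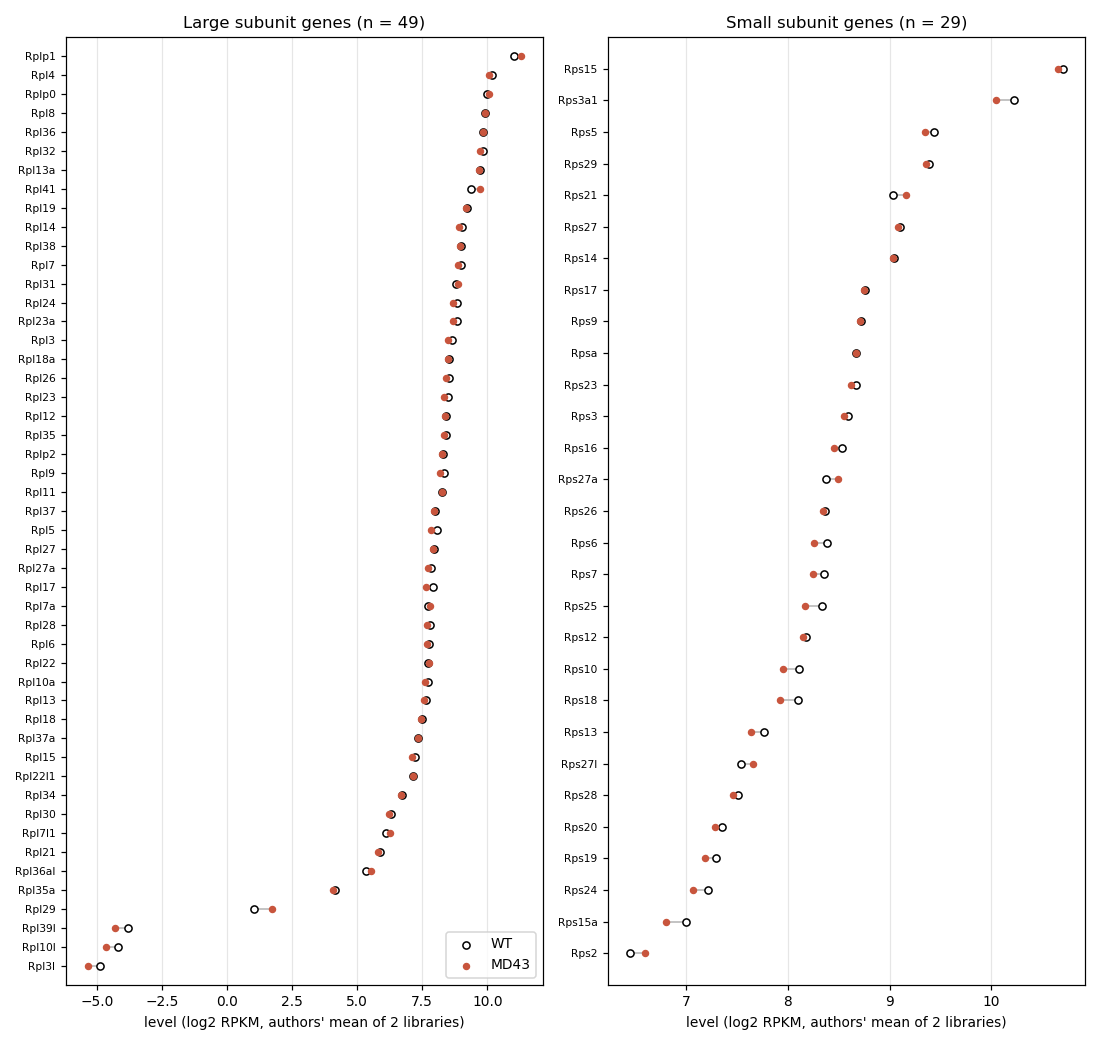
Level of 78 of the 80 members (log2 RPKM, the authors' mean of 2 libraries) in WT (open circles) and MD43 (filled circles), ordered by mean level within the large and the small subunit. Most pairs of points nearly coincide, and Rpl29, Rpl35a and the 3 paralogues without at least 10 reads lie apart at the bottom left.

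The 5 main chains with the highest mean level were Rplp1, Rps15, Rps3a1, Rpl4 and Rplp0. Rplp1, an acidic protein of the stalk that recruits elongation factors, was at 11.03 log2 RPKM in WT and 11.30 in MD43. Rplp0, which anchors the stalk to the large subunit, was at 9.97 and 10.05, while their partner Rplp2 was at 8.30 and 8.26. Per exon length the stalk proteins, which work as a complex, thus had unlike levels. Rps15 was at 10.71 and 10.66, Rps3a1 at 10.22 and 10.05, and Rpl4 at 10.17 and 10.07.

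At the other end, Rpl29 was at 1.03 log2 RPKM in WT and 1.72 in MD43, from 36.9 and 82.7 reads. It was the lowest main chain by far. Rpl35a was at 4.15 and 4.07, Rpl21 at 5.88 and 5.79, Rpl30 at 6.28 and 6.20, and Rps2 at 6.45 and 6.60. Every other main chain had a mean level above that of Rps2.

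Ribosomal protein mRNAs have many processed copies in mammalian genomes, and several of the low members shared sequence with many other annotated genes. Each 75-base stretch of a member's mRNA, the read length, was looked up in the transcripts of all other genes of GENCODE M21. The Rpl29 mRNA shared such a stretch with 45 other genes, Rpl21 with 61, Rps2 with 50, Rpl35a with 15 and Rpl30 with 12. Rpl7a shared one with 64 genes and was at 7.71 log2 RPKM in WT and 7.78 in MD43. Across the 73 main chains the number of sharing genes and the mean level had a Spearman rho of -0.43, or -0.41 without Rpl29. For the percentage of a member's stretches that were shared, rho with the mean level was weaker, -0.25, or -0.24 without Rpl29. Genes are not independent replicates, and reads that fit several genes may have been assigned to any of them, so the levels of such members are uncertain.

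**Figure D2:**
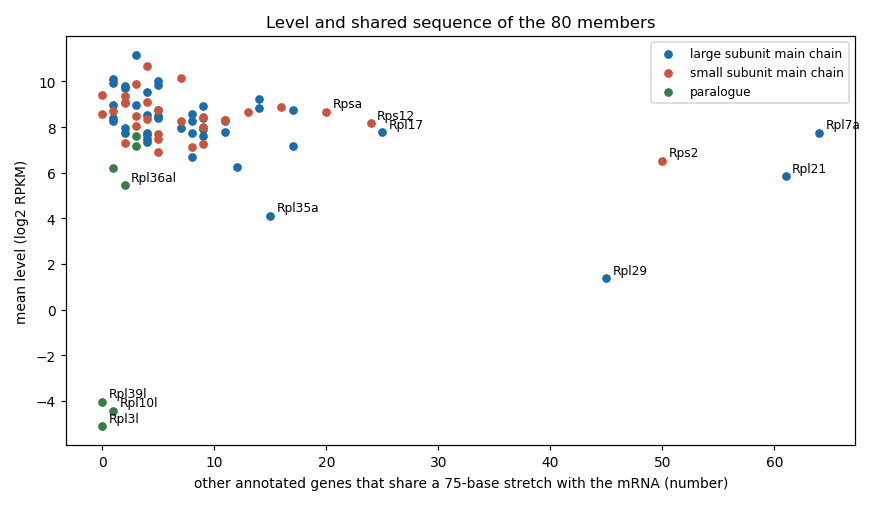
Mean level of each member (log2 RPKM, mean of WT and MD43) against the number of other annotated genes that share a 75-base stretch with its mRNA. Rpl29, Rps2, Rpl21 and Rpl7a, with 45 to 64 sharing genes, lie to the right, and Rpl29 lies lowest of all main chains at 1.37.

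The deposited values divide by the length of all annotated exons of a gene, which ranged from 383 bases (Rpl36) to 6270 (Rps15a) among the main chains with a median of 1830, while the median length of the shortest principal mRNA was 729. Mean level and exon length had a Spearman rho of -0.61 across the 73 main chains. Scaled to the mRNA length instead, the median mean level rose from 8.38 to 9.84 log2 RPKM, and the SD over the 72 main chains other than Rpl29 was 0.873 in place of 1.13. Rplp1 remained highest and Rpl29 lowest of the main chains on this scale. The mean levels of the stalk proteins drew together, at 11.17 for Rplp1, 10.58 for Rplp2 and 10.30 for Rplp0, so that Rplp2 and Rplp0 changed places. Rps14 moved from rank 17 to rank 2 among the members, and Rps20 from 64 to 73. The principal mRNA annotated for Rps20 has 3706 bases for a coding sequence of 360. Its rank on this scale rests on that annotation, and the mRNA length in the tissue was not tested.

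Between genotypes the members differed little and mostly in 1 direction. The median difference was -0.06 (MD43 minus WT, log2 RPKM) over the 77 used members, and 61 of them (79.2%) were lower in MD43. Over all used genes the median was 0.01, and 48.8% were lower. Over the 1555 used genes with a mean of at least 5 log2 RPKM the median was 0.05, and 36.1% were lower. For 45 of the 77 members the difference was within 0.1 of 0 and for 71 within 0.2. By 95% intervals from the smallest counting SE, 50 members were lower and 13 higher beyond counting error, against 373 and 780 of the 1555 genes of that level. The 1555 include members. Of the 1480 that are no members, 33.9% were lower with a median of 0.06, and 324 were lower and 768 higher by these intervals. These intervals leave out the variation between embryos.

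Few members passed a fold set for the count, a log2 difference of 0.32, which is 25% higher or 20% lower. None of the 77 was at least 20% lower in MD43, against 14.0% of all used genes and 2.25% of those with a mean of at least 5 log2 RPKM. Centred on the genes with that mean, Rpl17 alone was at least 20% lower. Rpl41 and Rpl29, 2 of the 77, were at least 25% higher (Rpl29 alone by centring on the genes with a mean of at least 5 log2 RPKM or with GC content and length corrected for), against 10.3% of all used genes and 4.18% of those at that level. With 1 value per genotype, these shares describe the table alone.

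**Figure D3:**
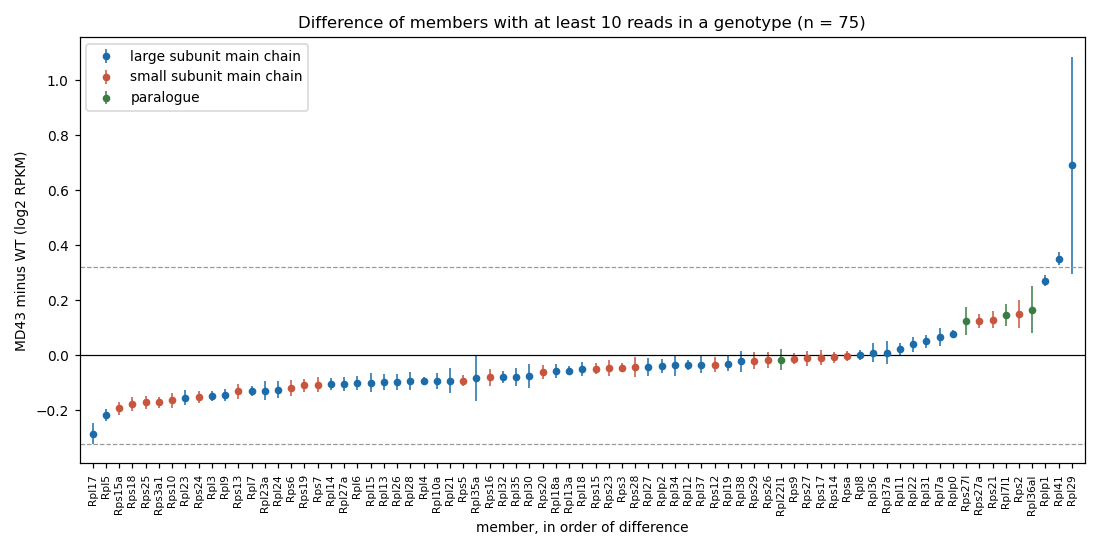
Difference of 75 of the 77 used members between genotypes (MD43 minus WT, log2 RPKM), in order of size and coloured by subunit or as a paralogue. Bars are 95% intervals from the smallest counting SE, dashed lines mark log2 differences of 0.32 either way, and 59 of the 75 points lie below 0.

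Between 7 and 9 log2 RPKM the members lay lower than other genes of their level. Of the 21 members with a mean between 7 and 8 log2 RPKM, 17 were lower in MD43 (81.0%) and their median difference was -0.09, while the 143 other genes in this range had a median of 0.05 and 32.2% were lower. Between 8 and 9 log2 RPKM, 27 of 30 members were lower with a median of -0.08, against 42.5% of 40 other genes with a median of 0.01. Between 9 and 10, where 16 other genes remained, the medians were -0.02 for 12 members and -0.02 for the others.

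**Figure D4:**
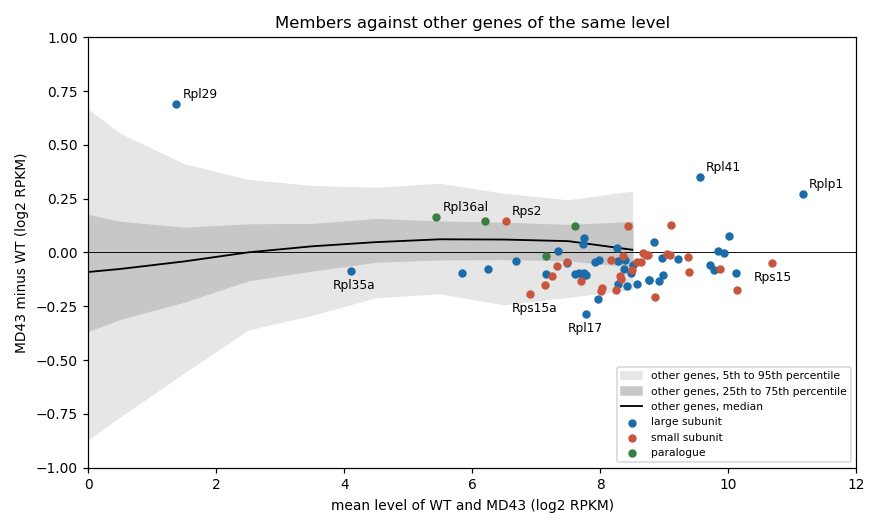
Difference between genotypes (MD43 minus WT, log2 RPKM) against mean level (log2 RPKM) for the used members (points) and for all other used genes (black line, median in steps of 1 log2 RPKM, with shaded percentiles) where a step held at least 20 genes. Between 7 and 9 log2 RPKM most members lie below the line, while Rpl29, Rpl41 and Rplp1 lie well above 0.

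The large subunit main chains had a median difference of -0.08, with 33 of 43 lower in MD43, and the small subunit main chains one of -0.06, with 27 of 30 lower. The members with the most negative differences came from both. Rpl17, a protein near the exit of the peptide tunnel, was at 7.92 log2 RPKM in WT and 7.63 in MD43, a difference of -0.29 ± 0.02 (counting SE) from 5151 and 5876 reads. Its level in MD43 was 0.820 times that in WT. Centred on the genes with a mean of at least 5 log2 RPKM, Rpl17 differed by -0.34. Its mRNA shared 77.9% of its 75-base stretches with other genes.

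Rpl5, which carries 5S rRNA into the ribosome with Rpl11 and binds the p53 regulator MDM2, was at 8.07 in WT and 7.85 in MD43, a difference of -0.22 ± 0.01. Its mRNA shared 92.5% of its 75-base stretches with other genes. Rpl11 was at 8.25 and 8.27, a difference of 0.02 ± 0.01 that turned to -0.03 when centred on the genes with a mean of at least 5 log2 RPKM and to -0.003 after a GC content and length correction. Rpl11 thus lay near 0 under each scaling. The same correction took Rpl5 to -0.13. Rps15a differed by -0.19 ± 0.01 (6.99 and 6.80) and Rps18 by -0.18 ± 0.01 (8.10 and 7.92), both of them parts of the small subunit. With GC content and length corrected for, Rps15a differed by -0.13. Centred on the genes with a mean of at least 5 log2 RPKM, Rpl5 differed by -0.27, Rps15a by -0.25 and Rps18 by -0.23. The shared stretches were 37.3% for Rps15a, 77.8% for Rps18 and 61.0% for Rpl11.

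On the positive side, the largest difference was that of Rpl29 (GRCm38 chromosome 9, 106429454 to 106431568, plus strand), 0.69 ± 0.20 from few reads, with a counting interval from 0.29 to 1.09. Rpl41 (chromosome 10, 128548114 to 128549305, minus strand), a very short and strongly basic peptide, was at 9.38 in WT and 9.73 in MD43, a difference of 0.35 ± 0.01 or 1.28-fold, from 12502 and 22170 reads. By that centring it was 0.30 and by that correction 0.30, both under 0.32. Rplp1 (chromosome 9, 61913284 to 61914542, minus strand) differed by 0.27 ± 0.01 (1.21-fold), from 16764 and 28110 reads. By the same centring Rplp1 differed by 0.22 and by the same correction by 0.19. Depth was not the limit for these 2 genes. Of the other stalk proteins, Rplp0 differed by 0.08 and Rplp2 by -0.04. Centred on the genes with a mean of at least 5 log2 RPKM these were 0.02 and -0.09, and Rplp2 was at -0.08 with GC content and length corrected for.

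Rps2, which lies at the mRNA entry side of the small subunit, was at 6.45 in WT and 6.60 in MD43 and differed by 0.15 ± 0.03, or by 0.095 with the same centring. Rpsa, also a receptor for laminin, was at 8.67 in both genotypes and differed by -0.003. Rps21, which contacts Rpsa in the small subunit, differed by 0.13 ± 0.02, and Rps27a, made as a fusion with ubiquitin, by 0.13 ± 0.01. These and Rps2 were the 3 small subunit main chains higher in MD43.

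The genes of Diamond-Blackfan anaemia among the members followed the group. Of the 19 listed, 17 were lower in MD43, and none by as much as 20%. Their median difference was -0.08. Rps19, the most often mutated of them, was at 7.30 in WT and 7.19 in MD43, a difference of -0.11 ± 0.01. Of the 2 genes known from patterning mutants, Rpl24 differed by -0.13 ± 0.02 (8.82 and 8.70) and Rpl38 by -0.02 ± 0.02 (8.98 and 8.95). Rpl38 moved to -0.08 when centred on the genes with a mean of at least 5 log2 RPKM and to -0.11 with GC content and length corrected for. By the same centring Rps19 differed by -0.16 and Rpl24 by -0.18, and the correction took Rps19 to -0.08. Rpl24 shared 80.9% of its 75-base stretches with other genes, Rpl38 51.3% and Rps19 49.9%.

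The paralogues fell into a group with almost no reads and an expressed group. Rpl3l, which replaces Rpl3 in striated muscle, and Rpl10l, a retrogene of the testis, had no reads in any library. Rpl39l, also known from the testis, had 1 read in 1 library of each genotype. Up to 3 reads in a genotype remain possible at a count of 0, and no fold is given for these 3 genes.

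The 4 other paralogues were expressed. Rpl22l1 was at 7.16 log2 RPKM in WT and 7.14 in MD43, below its main chain Rpl22 at 7.70 and 7.74. Rpl7l1 was at 6.12 and 6.26, below Rpl7 at 8.99 and 8.86. Rps27l, a p53 target, was at 7.53 and 7.66, below Rps27 at 9.10 and 9.09. Rpl36al was at 5.36 and 5.52. Each of the 3 expressed paralogues with a measured main chain therefore had the lower level of the pair on this scale.

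In 3 of the 4, the level was higher in MD43, unlike most main chains. Most used genes with a mean of at least 5 log2 RPKM were higher too, with 36.1% of the 1555 lower. Rpl36al differed by 0.16 ± 0.04, Rpl7l1 by 0.15 ± 0.02 and Rps27l by 0.12 ± 0.03. Rps27l differed by 0.071 when centred on the genes with a mean of at least 5 log2 RPKM. Their main chains differed by -0.13 (Rpl7) and -0.01 (Rps27). Rpl22l1 differed by -0.02 ± 0.02, or by 0.06 once GC content and length were corrected for, while Rpl22 differed by 0.04. The median over the 4 was 0.13, and none reached 0.32. With so few genes, no more is read from this than the values.

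No 75-base stretch was common to an expressed paralogue and its main chain. The coding sequence of Rps27l was 76.1% identical to that of Rps27, both 255 bases long, and the longest stretch shared by the 2 mRNAs was 11 bases, far under the read length. Identity was 66.9% for Rpl22l1 and Rpl22, with a longest shared stretch of 26 bases, and 50.3% for Rpl7l1 and Rpl7, with 10 bases. The first 90 coding bases of the Rps27 pair follow, from the GENCODE M21 transcripts (GRCm38), with the 24 positions that differ in capitals.
Rps27l: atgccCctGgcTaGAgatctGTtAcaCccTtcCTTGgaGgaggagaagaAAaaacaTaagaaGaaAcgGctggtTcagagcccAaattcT
Rps27: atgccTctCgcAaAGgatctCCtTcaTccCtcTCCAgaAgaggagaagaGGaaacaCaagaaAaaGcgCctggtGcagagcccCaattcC

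Median differences fell from the short to the long coding sequences. The 22 main chains with a coding sequence of at most 400 bases had a median difference of -0.03, the 31 of over 400 and up to 600 bases one of -0.08, and the 20 longer ones one of -0.10. The short ones spread from -0.19 (Rps15a) to 0.35 (Rpl41). The Spearman rho of difference and coding length was -0.30 over the 73 main chains. For mRNA length it was -0.32 in the main chains, -0.02 in the 13174 used genes with a principal mRNA and 0.02 in the 1477 of these with a mean of at least 5 log2 RPKM.

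Many of these genes carry small nucleolar RNAs, the guides of ribosomal RNA modification, in their introns. Of the 80 members, 28 held 56 annotated snoRNAs, up to 5 in Rpl4. The 28 hosts had a median difference of -0.08, with 26 lower in MD43, and the 49 other used members one of -0.04, with 35 lower. The span of 28 members overlapped another annotated gene, such as Vps52 at Rps18 and Snhg9 at Rps2, and how strand was used in counting is not given in the sources used here. Among members that lie close together, Rps29 and Rpl36al, 23545 bases apart on chromosome 12, differed by -0.02 and 0.16.

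Genes that work beside the ribosomal proteins were listed as well. Fau, whose product is cut to the small subunit protein eS30, was at 8.45 in WT and 8.34 in MD43 and differed by -0.11 ± 0.02. It does not match the naming rule. Among other mRNAs listed for their TOP motif, 10 of 11 were lower in MD43 with a median of -0.09, none by 20%. The median level of this list was 7.65 log2 RPKM. Of the 143 genes with a mean between 7 and 8 log2 RPKM that are no members, 32.2% were lower, with a median of 0.05. Tpt1, a translationally controlled protein, differed by -0.26 ± 0.01 and Rack1, a scaffold on the small subunit, by -0.14 ± 0.01. Snhg1, a snoRNA host, was the 1 higher, by 0.08. Eef2k in this list encodes a kinase of the elongation factor and is not an established TOP mRNA. It differed by -0.24 and is counted among the 10 lower.

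The translation factors lay on both sides of 0. Of the 1555 used genes with a mean of at least 5 log2 RPKM, 36.1% were lower in MD43, with a median of 0.05. The initiation factors lay near these values. Of the 33 listed, 12 were lower and 21 higher, with a median of 0.06. Eif3e (-0.37 ± 0.02) and Eif3f (-0.23 ± 0.02), subunits of the scaffold that holds the small subunit, were lowest, and Eif4g1 (0.38 ± 0.01), which bridges the cap to the ribosome, and Eif2b4 (0.32 ± 0.05), of the exchange factor of eIF2, were highest. Eif3e and Eif4g1 were the ones past the fold above. Of 11 elongation and release factors 5 were lower and 6 higher, with a median of 0.07. Eef1a1, which delivers tRNA and is a TOP mRNA, was at 11.74 in WT and 11.53 in MD43, a difference of -0.21, and Eef2, the translocase, differed by -0.12. Eif5a (0.26) and Gspt1 (0.23) were highest.

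Most factors that build ribosomes were higher in MD43. Of 50 genes of ribosome assembly and the nucleolus, 47 were higher and 3 lower, with a median of 0.18. Their median level was 5.07 log2 RPKM, and most other genes of that level were higher too. Of the 942 genes with a mean between 5 and 6 log2 RPKM that are no members, 34.0% were lower, with a median of 0.06. At least 25% higher were 14 of the 50, against 10.3% of all used genes and 4.18% of those with a mean of at least 5 log2 RPKM. Rrp12 differed by 0.61 ± 0.04 (3.86 and 4.47) and Pno1 by 0.45 ± 0.04 (5.41 and 5.87), both factors of small subunit maturation. Nsa2 (-0.19 ± 0.03), a large subunit factor, and Dimt1 (-0.12 ± 0.06), an rRNA methylase, were the most negative. Of 20 genes of RNA polymerase I and its factors 16 were higher, with a median of 0.11, led by Polr1e (0.36) and Polr2l (0.29). Twistnb (-0.12) and Taf1b (-0.11) were lowest. The median level of this list was 4.08 log2 RPKM. Of the 1837 genes with a mean between 4 and 5 log2 RPKM that are no members, 36.7% were lower, with a median of 0.05.

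Of 77 used mitochondrial ribosomal protein genes 66 were higher in MD43, with a median of 0.09, and 8 of them by at least 25%, against the 10.3% of all used genes. The 1837 genes with a mean between 4 and 5 log2 RPKM that are no members, the range of the median mitochondrial gene, had a median of 0.05, and 36.7% of them were lower. Mrpl12 (0.42 ± 0.02) and Mrps26 (0.40) were highest, and Mrps16 (-0.18 ± 0.06) and Mrpl24 (-0.17) lowest. The mitochondrial list and the cytosolic main chains thus had medians of opposite sign in the same libraries. No list was tested against another.

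**Figure D5:**
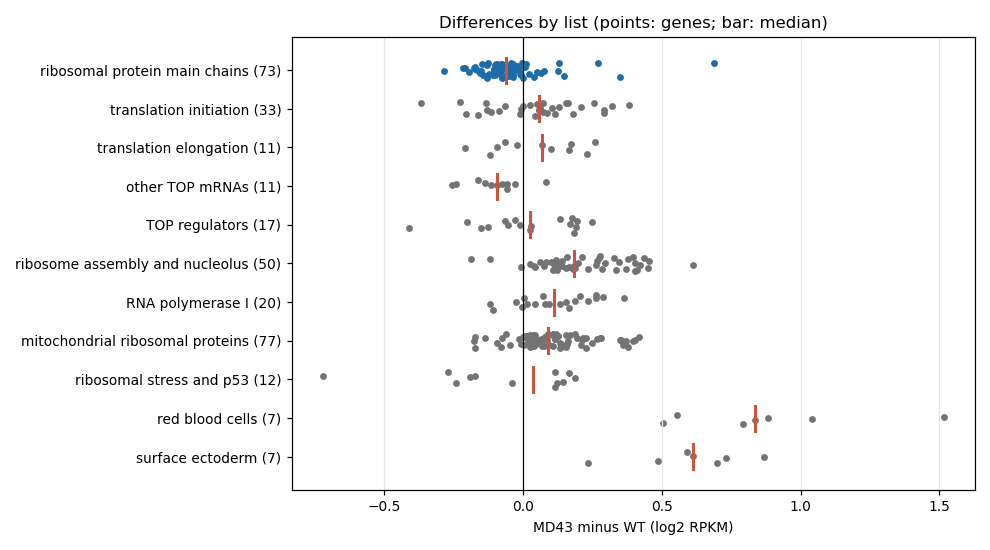
Difference between genotypes (MD43 minus WT, log2 RPKM) of the used genes of each list, with the number of genes in brackets. Each point is a gene and the bar is the median of the list, at -0.06 for the ribosomal protein main chains, 0.18 for ribosome assembly and 0.09 for the mitochondrial ribosomal proteins.

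Of 17 used regulators of TOP mRNAs 8 were lower and 9 higher in MD43, with a median of 0.03. Eif4ebp1, a repressor of cap binding under mTOR, was lowest at -0.41 ± 0.04 (4.87 and 4.46), followed by Tia1 at -0.20. Mtor itself was highest at 0.25 ± 0.03 (3.09 and 3.34), followed by Tsc2 at 0.19. Larp1, which binds the TOP motif, was at 4.75 and 4.88. Of 12 used genes of the p53 response, which can follow faulty ribosome assembly, 6 were lower and 6 higher with a median of 0.04, from Sesn2 at -0.72 and Mdm4 at -0.27 to Bbc3 at 0.16 and Phlda3 at 0.19.

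Markers of red blood cells and surface ectoderm differed between genotypes in the same libraries. All 7 red blood cell markers measured were higher in MD43 with a median of 0.84, and their summed level was 3060 RPKM in WT and 5819 in MD43. The X-linked Alas2 was not analysed here. Globin rows held 0.233% of the reads in WT and 0.431% in MD43. All 7 surface ectoderm markers were higher too, with a median of 0.61 and sums of 117 and 183 RPKM. Of 9 facial mesenchyme markers 5 were lower (median -0.10, sums 159 and 158), of 7 neural epithelium markers 5 were lower (median -0.28, sums 216 and 200.2) and of 5 endothelial markers 4 were lower (median -0.05, sums 7.91 and 7.39). Among the endothelial markers only Kdr (-0.33 ± 0.08) differed beyond counting error. The 1535 genes with a mean between 0 and 1 log2 RPKM, the range of the median endothelial marker, had a median of -0.08. With the globin reads taken out of the library sizes, 59 of the 77 used members were lower in MD43 with a median of -0.05. That step shifts every gene by the same small amount, so it cannot show the part of cell composition. The part of cell composition in the differences of the ribosomal protein genes was not tested.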

How the data were processed

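Stranded libraries of poly(A) RNA from 4 FNPs (2 WT, 2 MD43) were sequenced by the study. Per the submitters' processing notes, reads were trimmed with Trim Galore 0.4.4 and mapped with HISAT2 2.0.5 to GRCm38.p6, and the authors quantified them in SeqMonk as log2 RPKM, scaled for library size and exon length. The deposited table holds 1 log2 value per genotype, the authors' mean of 2 libraries. Its other columns hold the authors' log2 fold change, their mean over genotypes and an FDR (a q-value of their edgeR-based test), and were not used. The planned test on values per library could not be run, because the table holds none. Sex chromosomes had been left out by the authors.

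Of the 33708 rows, 33101 were matched to GENCODE M21 by symbol and position. Values of genes without reads, taken as 0.9 reads per library, fixed the scale, from which the reads of both libraries multiplied together were recovered, and the square root of this product was used as reads. Of the products between 100 and 1000, 99.8% in MD43 and 99.7% in WT lay within 0.02 of a whole number or of 0.9 times one. The counting SE is the smallest that these reads allow. Recovery was tested on simulated data.

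Members, lists and thresholds were chosen with earlier results of these data known. Named are every paralogue, the 5 highest and 5 lowest main chains, the 5 largest differences each way, the stalk proteins, Rpsa, 5 disease or patterning genes and the 2 extremes of each list. Other named genes, among them Rpl7a, Rps14, Rps20, Rps21, Rps27a, Eef2k, Larp1 and the snoRNA hosts, were chosen after their values were seen. Values of a few genes of these lists are not reported here. Start windows came from RefSeq. Coding sequences were aligned with Biopython 1.88. Tables were handled with pandas 2.3.3. Alternatives were pseudocounts of 0.1 and 1 RPKM, other centrings, filters and folds, a GC content and length fit, members with little shared sequence, and library sizes without globin reads.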

Additional observations from a re-analysis of the deposited data

How the results depend on the processing

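The direction of the median difference of the members, of the main chains and of both subunits was the same under every alternative run. Centring on the genes with a mean of at least 5 log2 RPKM moved these medians by the shift of those genes, to -0.11 for all members, -0.12 for main chains, -0.13 for the large and -0.11 for the small subunit, and to 0.082 for the paralogues. It left 1 member at least 20% lower (Rpl17) and 1 higher (Rpl29). Without a filter on low values the 3 paralogues with at most 1 read in a library entered at the ratio of the depths. This gave 3 members at least 20% lower and turned the paralogue median to -0.017. After the GC content and length fit 1 member was at least 25% higher (Rpl29), and the paralogue median was 0.17. At 1.5-fold 1 member was higher (Rpl29). Leaving out the members that share at least 50% of their 75-base stretches, an alternative chosen after seeing the data, left 1 higher (Rpl41) and a large subunit median of -0.050. Taking globin reads out of the library sizes was chosen after seeing the data too and moved none of these results beyond counting error. Of the alternative values of single named genes, 133 stayed within their counting interval and 27 did not. All 27 came from centring on the genes with a mean of at least 5 log2 RPKM or from the GC content and length fit. Filters and leaving out members cannot change the value of a single gene, so the 133 do not measure robustness.

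No paired analysis was possible because no value per library is in the table. The same holds for leaving out a replicate. Members with identical stretches elsewhere in the genome were not left out, since no genome sequence was used here, and the shared stretches are those of annotated transcripts alone. Depth limits the difference of Rpl29, Rpl36al and Rpl35a, whose counting SE were the largest of the used members, while the variation between embryos is unknown for all.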

Other observations

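Of 6 rows named as ribosomal protein pseudogenes with the ending -ps, which the naming rule left out, 3 had at least 10 reads in a genotype. Rpl9-ps6 was at 3.40 log2 RPKM in WT and 3.14 in MD43, a difference of -0.26 ± 0.13 (counting SE) from 121 and 140 reads, beside -0.15 ± 0.01 for Rpl9 itself. Rpl36a-ps1 was at 2.66 and 2.72 from 45.5 and 65.9 reads, and Rpl10-ps3 at 0.33 and -0.65 from 15.5 and 11.0 reads. Their parents Rpl36a and Rpl10 are X-linked and were not analysed here. How many of these reads came from the parent mRNAs was not tested.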
